A study of Bos taurus with 24 samples.

Results

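The miR-2284 and miR-2285 families were followed in the small RNA of bovine blood plasma. Members were all miRNAs in the deposited count table whose bovine name begins with bta-miR-2284 or bta-miR-2285, with no lower limit on their counts. This gave 58 of 870 listed miRNAs, 31 named miR-2284 and 27 named miR-2285. All libraries came from 8 non-pregnant, cycling yearling Holstein-Friesian heifers, whose oestrus had been synchronised with a progesterone device, buserelin and cloprostenol. Each heifer gave 1 library at oestrus (Day 0), 1 on Day 8 and 1 on Day 16 of the cycle, so there were 24 libraries, 8 for each day, and every difference between days was measured within animals. The 8 animals are called here by their numbers (16, 18, 20, 21, 22, 25, 34 and 35). No group was untreated or unsynchronised. Plasma is free of most cells, so its miRNAs can come from many tissues and from blood cells that break, and fewer cells of a type and less RNA per cell cannot be told apart.

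MicroRNAs are short RNAs cut from hairpin precursors. They guide silencing complexes to messenger RNAs, mainly through the seed, bases 2 to 8 counted from the 5′ end. The miR-2284 and miR-2285 families are known from cattle and other ruminants and have no named human counterpart, and their many hairpins lie scattered over the chromosomes, often inside introns of unrelated genes. Their mature sequences resemble each other closely, and little is known of their targets.

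Sequences could be read for miR-2284x and miR-2284aa, which stand for the 2 pairs of members with the most reads, and for a predicted arm of miR-2285aa. They are shown to make clear how little separates the most abundant members, and the capitals mark the seed. They came from the isomiR list of the study.
miR-2284x: tGAAAAGTtcgttcgggtttt
miR-2284aa: aAAAAAGTttgtttgggtttt
predicted arm miR-2285aa-5p: cAAAAAGTtcgtccagattttt
The seed of miR-2284aa, AAAAAGT, was also that of the predicted miR-2285aa-5p arm, although the names put them in different families. The seed of miR-2284x was GAAAAGT. Neither seed was found outside the miR-2284 and miR-2285 families in that list, which held 134 names and 746 sequences in all.

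Both 21-base sequences were the same at 17 positions and differed at 4. Counted from the 5′ end, with miR-2284x first, the differences were T1A, G2A, C10T and C14T, in capitals in the next lines.
miR-2284x: TGaaaagttCgttCgggtttt
miR-2284aa: AAaaaagttTgttTgggtttt
Only G2A lies in the seed. The counting allowed 1 mismatch, so a read that carries 1 error in either sequence still differed from the other at 3 or more positions. The isomiRs of miR-2284x included reads that begin 1 base later, which moves the seed to AAAAGTT.
miR-2284x from its 2nd base: gAAAAGTTcgttcgggttttt

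The deposited table gives each member 1 place in the genome, on 21 chromosomes and, for 2 members, on unplaced sequence. The build of these coordinates is not given in the sources used here. MiR-2284x and miR-2284y shared a place on the minus strand, chr1:3474029-3474049 and chr1:3474027-3474047, so that miR-2284y begins 2 bases further 3′. MiR-2284aa (chr10:8792935-8792955) and miR-2284z (chr10:8792934-8792955) shared another on the minus strand, with miR-2284z 1 base longer at its 3′ end. MiR-2285y was placed at chr10:8792935-8792955 on the plus strand, opposite miR-2284aa. In all, 7 pairs of members overlapped, and they included miR-2285q with miR-2285z and miR-2285g with miR-2285af, on opposite strands, and miR-2284e with miR-2284f. No member overlapped a miRNA of another family.

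NCBI RefSeq (cattle assembly ARS-UCD2.0, used only for names and neighbours) held 191 genes of the 2 families on 30 chromosomes and matched 57 of the 58 members, all but miR-2284d. Of the 57, 11 had several gene copies. MiR-2284y, miR-2284z and miR-2285n had 7 each, and the deposited chromosome was that of a RefSeq copy for 37 of 57. MiR-2284aa, miR-2284e, miR-2284f, miR-2284w, miR-2285y and miR-2285af were among those for which it was not. Of 95 copies of matched members, 67 lay within the bounds of another gene, on a strand the table does not give. These counts enter the genes of miR-2284h and miR-2284t once for each listed arm. MiR-2284x lay in TIAM1, an exchange factor for the small GTPase Rac. MiR-2284w lay in DOCK11, an exchange factor for Cdc42, and miR-2284ab in AFF1, a scaffold of the elongation machinery of transcription. MiR-2285t lay in FCGR2B, the inhibitory Fc receptor for IgG on B cells and myeloid cells, and 1 of 4 copies of miR-2284aa in PIK3R5, a regulatory subunit of the PI3-kinase of blood cells. MiR-2285q and miR-2285z both lay in SREK1, a splicing regulator. The genes for miR-2285y and for 1 copy of miR-2284z overlapped in RefSeq too, within PLEKHA5.

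Most members could be detected, and few were abundant. A count of at least 1 was found for 54 of the 58 (93.1%), close to the 94.4% of the 568 other bovine miRNAs. MiR-2284r, miR-2284s, miR-2285l and miR-2285w were at 0 in all 24 libraries. A further 33 members had totals of 1 to 149 counts over all libraries and at most 16 in any, 21 reached 10 counts in at least 8 libraries, and 9 of these met the study's limit for testing, which asks for more than 25 RPMM on every day in 6 or more of its 8 libraries. RPMM is the count per 1000000 reads of a library that mapped to the genome. The 9 were 15.5% of the members, against 29.9% of other bovine miRNAs and 0.625% (1 of 160) of the bovine miRNAs with the next higher catalogue numbers. Depth, the sum of counts over all miRNAs, was 1299679 to 4700764 per library.

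All members together took 0.591% ± 0.115 (SD, n = 24) of the miRNA counts of a library, between 0.335% and 0.794%. By day the share was 0.621% ± 0.110 (Day 0), 0.602% ± 0.0976 (Day 8) and 0.550% ± 0.136 (Day 16, each SD over 8 libraries), and the days overlapped. Reads of miR-2284x and miR-2284z may be counted again under miR-2284y and miR-2284aa, and without them the share was 0.334% ± 0.0639. The 4 members of those pairs held 88.7% of the family's counts, and the 9 members at the study's limit 97.7%.

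**Figure D1:**
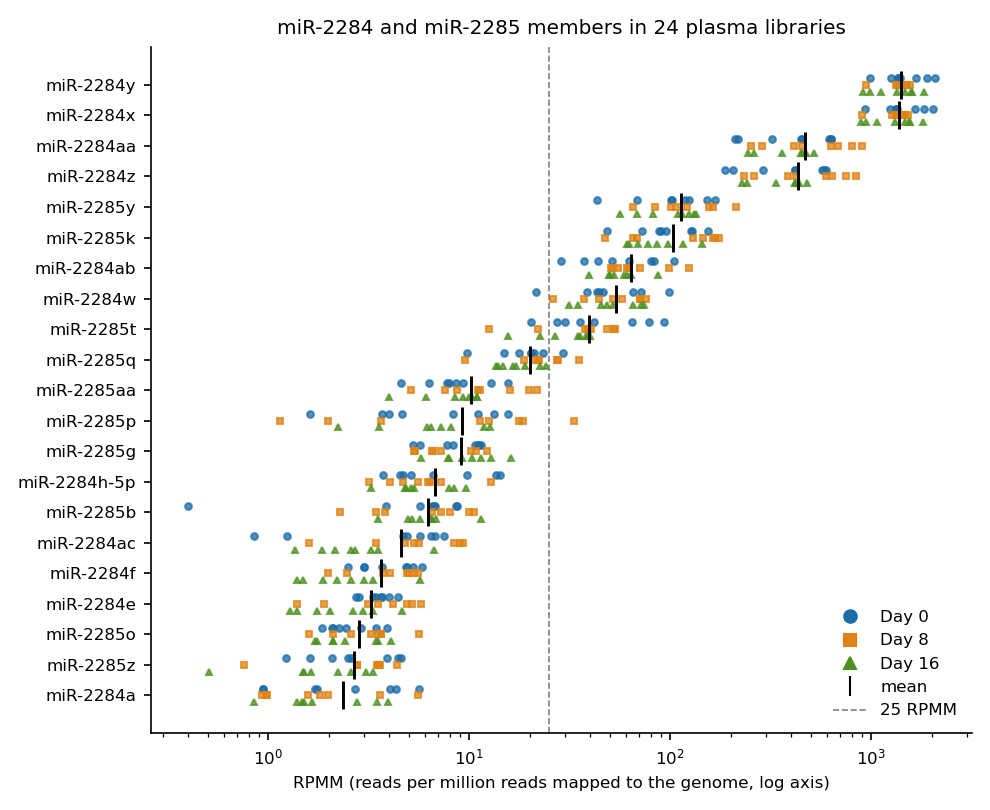
RPMM (log axis) of the 21 members that reached 10 counts in at least 8 libraries, 1 point for each of 24 libraries, with a bar at the mean and a dashed line at 25 RPMM. MiR-2284y and miR-2284x lie highest (means of 1409 and 1373) and miR-2284a lowest (2.35), and the 3 days overlap in each member.

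MiR-2284y had the highest mean, 1409 RPMM ± 293 (SD, n = 24), and miR-2284x followed with 1373 ± 294. On Day 0 miR-2284y was between 982 and 2068 RPMM (median 1380), on Day 8 between 944 and 1561 (median 1396) and on Day 16 between 912 and 1838 (median 1414). The days overlapped almost completely. The counts of both members differed by a median of 2.24% and at most 5.04% within a library, with miR-2284y higher in 24 of 24. They were therefore read as 1 measurement given under 2 names.

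MiR-2284aa averaged 466 RPMM ± 185 and miR-2284z 432 ± 174. Their ratio lay between 1.06 and 1.12 in every library, so these also were read as 1 measurement. MiR-2284aa was between 209 and 634 RPMM on Day 0 (median 449), between 253 and 903 on Day 8 (median 541) and between 244 and 519 on Day 16 (median 450). The days overlapped, and the highest values were on Day 8.

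MiR-2285y averaged 113 RPMM ± 39.8 and miR-2285k 103 ± 39.96, which are neighbours that do not differ beyond their spread. The counts of miR-2284aa were 3.07 to 5.21 times those of miR-2285y, opposite it in the deposited coordinates (median 4.07). The SD of the log2 ratio was 0.20, against 0.020 for miR-2284x to miR-2284y, 0.017 for miR-2284aa to miR-2284z and 0.35 for the less abundant same-strand pair miR-2284e and miR-2284f. MiR-2284ab (63.6 ± 22.5), miR-2284w (53.6 ± 18.6) and miR-2285t (39.5 ± 18.8) followed, and their ranges overlapped. Of the 9, miR-2285t came nearest to the limit, with 5 of 24 libraries at or below 25 RPMM, and miR-2284w had 1. Members spanned 20 to 23 bases, so RPMM was compared between them with no division by length.

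Of the 12 members below the limit, miR-2285q (20.1 RPMM ± 6.07) was highest and miR-2284a (2.35 ± 1.47) lowest. MiR-2285q exceeded miR-2285z, which lies opposite it on chromosome 20, in 24 of 24 libraries, by a median of 7.91 times. MiR-2285g was read in 24 libraries with 944 counts in all, and miR-2285af, opposite it in the deposited coordinates, in 4 libraries with 5 counts. MiR-2284e and miR-2284f, shifted by 1 base in those coordinates, had 339 and 380 counts. RefSeq places miR-2284e on chromosome X, miR-2284f on 21 and miR-2285af on 11 and 17. The remaining members of this range were miR-2285aa (10.2 RPMM), miR-2285p (9.19), miR-2284h-5p (6.74), miR-2285b (6.24), miR-2284ac (4.57) and miR-2285o (2.83).

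The clearest difference in these families lay between the animals. With heifer and day as terms, 6 of the 9 tested members differed between heifers at an adjusted p under 0.1 (edgeR), against 17.7% of all 181 miRNAs tested. They were miR-2285t, miR-2284w, miR-2285y, miR-2284aa, miR-2284z and miR-2284ab, and miR-2284x, miR-2284y and miR-2285k did not pass (adjusted p of 0.536, 0.624 and 0.506). Counting same-strand pairs once left 5 of 7, and without heifer 18 or heifer 25 the count was 4 of 9. A median of 67.3% of the variance of the 9 lay between heifers and 7.19% between days, against 41.8% and 8.05% over all 181. Such shares grow with the number of groups, 8 heifers against 3 days, even where nothing differs. The share for heifers is therefore to be set beside that of all 181 and not beside the share for days. As members do not vary independently, these shares describe the members and say nothing particular to the families. Levels between animals are given next as CPM scaled by TMM, that is, counts per 1000000 counts of the tested miRNAs after a correction for composition. Each heifer has 3 libraries.

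MiR-2285t differed most clearly (adjusted p = 0.0014, edgeR). Heifer 18 had 142.4 CPM on Day 0, 75.6 on Day 8 and 65.8 on Day 16, and heifer 21 had 24.4, 29.2 and 30.2. All 3 libraries of heifer 18 were above all 3 of heifer 21, with a 3.39-fold difference in means (94.6 ± 41.7 against 27.9 ± 3.1, SD, n = 3). Heifer 16 was also low, at 25.5 to 45.4, and the others lay between 35.6 and 91.4 and overlapped. Left out in turn, no heifer changed this call (adjusted p of 0.0018 to 0.015).

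MiR-2284w was likewise highest in heifer 18 (100.5, 118.3 and 98.1 CPM on Days 0, 8 and 16) and lowest in heifer 16 (35.4, 53.3 and 51.2), a 2.27-fold difference in means (adjusted p = 0.0028). Heifers 22, 34 and 20 followed heifer 18, and heifer 35, which was next to highest for miR-2285t, was next to lowest for miR-2284w (43.3 to 63.4). Leaving out any heifer kept the call (adjusted p of 0.0034 to 0.0098). The order of the animals was therefore not shared throughout even between these members.

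For miR-2284aa heifer 18 was at the other end of the order. Heifer 25 had 824.1, 844.5 and 820.8 CPM on Days 0, 8 and 16, and heifer 18 had 320.7, 447.0 and 493.5, a 1.97-fold difference in means (adjusted p = 0.037). Heifer 18 was thus lowest here and highest for miR-2285t and miR-2284w. Without heifer 18 or heifer 25 the adjusted p was 0.195 or 0.145, so the call rested on these animals. MiR-2284z, with nearly the same counts, behaved alike (adjusted p = 0.039).

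MiR-2285y, opposite miR-2284aa in the deposited coordinates but not in RefSeq, had the same 3 heifers at the top. Heifer 25 had 204.3, 200.1 and 212.5 CPM, heifer 22 had 195.0, 233.4 and 179.0, and heifer 16, the lowest in mean, had 71.5, 133.2 and 120.5. The means of heifers 25 and 16 differed 1.90-fold (adjusted p = 0.017), and all libraries of heifers 25 and 22 were above all of heifer 16. The call was kept without each heifer (adjusted p of 0.0079 to 0.0786).

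MiR-2284ab followed yet another order. Heifer 35 had 108.9, 143.1 and 122.6 CPM and heifer 22, which was high for miR-2284aa and miR-2285y, had 59.6, 60.6 and 54.2, a 2.15-fold difference in means with no overlap (adjusted p = 0.039). Without heifer 22 or heifer 35 the adjusted p was 0.174 or 0.145. MiR-2284y, the most abundant member, had heifer means from 1730 CPM (heifer 16) to 2303 (heifer 20), only 1.33-fold apart.

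**Figure D2:**
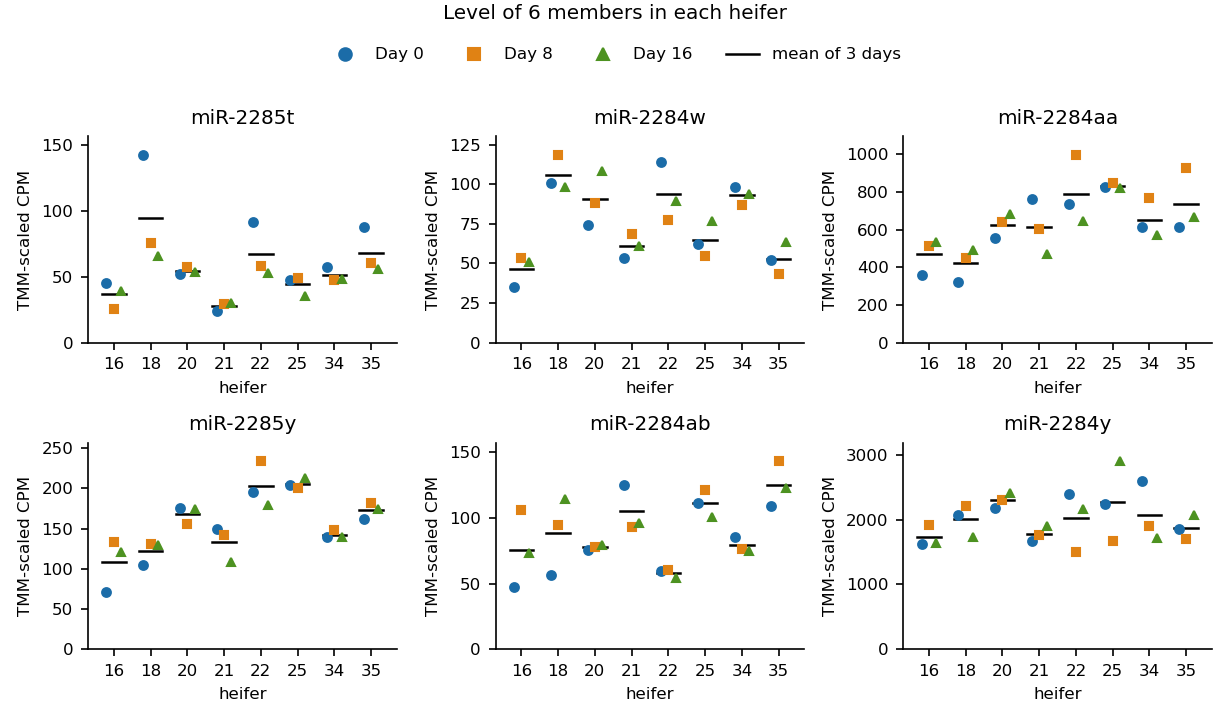
CPM scaled by TMM (axis from 0) of 6 members in each of 8 heifers, with a symbol for each day and a bar at the mean of the 3 days. Heifer 18 is highest for miR-2285t and miR-2284w and lowest for miR-2284aa. For miR-2284y the heifer means lie closer together, though all libraries of heifer 20 are above all of heifers 16, 21 and 35.

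MiRNAs known from red cells took different shares of the libraries of each animal. Of the 5 listed erythrocyte miRNAs (miR-486, miR-451, miR-144, miR-16a and miR-16b), none was at 0, and their summed share of counts averaged 37.9% in heifer 18, 35.4% in heifer 20, 25.5% in heifer 25, 22.2% in heifer 22, 19.4% in heifer 16 and 13.4% in heifer 35. The 4 listed platelet miRNAs summed to 3.29% in heifer 18, the lowest, and 6.53% in heifer 21, the highest. At the study's limit 1 of the 5 erythrocyte miRNAs, 1 of 4 platelet and 1 of 4 leukocyte miRNAs differed between heifers, against 17.7% of all 181, and in the wider set 2 of the 5 erythrocyte miRNAs did, against 19.4% of 325. The part of blood cells in the differences between heifers was not tested. With the shares of miR-486 and miR-451, both on the erythrocyte list, as covariates the same 6 members were called. That fit held no platelet or leukocyte miRNA as a covariate. Whether the 3 samples of a heifer were extracted or sequenced together is not given in the sources used here, so animal and handling cannot be told apart.

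Of the 21 members with at least 10 counts in 8 libraries, 10 differed between heifers (edgeR), against 19.4% of 325 miRNAs. A member can pass that count limit through a few animals with high levels, so the share is no support: miR-2284a passed it in 9 libraries of 6 heifers. Over miRNAs above 25 RPMM in all 24 libraries the count was 4 of 7, against 16.9% of 166, and with no limit it was 10 of 54, against 10.6% of 697. In the wider set miR-2285p, miR-2284a, miR-2284h-5p and miR-2285g were called besides the 6.

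MiR-2285p had 21.3, 20.5 and 17.8 CPM in heifer 35 and 5.6, 4.8 and 4.3 in heifer 21 (adjusted p = 0.0078). Its highest mean, in heifer 22, came from values of 15.5, 36.5 and 8.8, and its lowest, in heifer 16, from 2.7, 2.3 and 9.1. MiR-2284a and miR-2284h-5p were high in the same animals. MiR-2284h-5p had 17.2, 17 and 16.3 CPM in heifer 21 and 16.0, 14.7 and 14.3 in heifer 16, above all other libraries but that of heifer 34 on Day 0 (18.6). MiR-2284a had 6.7, 7.4 and 6.7 in heifer 21 and 6.7, 7.3 and 5.8 in heifer 16, and at most 5.9 elsewhere. Counts of miR-2284h-5p were 2 to 5 times those of miR-2284a in every library (median 3.07), though the table places them on chromosomes 24 and 21. MiR-2285g was highest in heifer 18 (22.4 CPM ± 7.2) and lowest in heifer 35 (8.8 ± 1.9).

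None of the 9 tested members differed between days at an adjusted p under 0.1. The background was low as well. For the effect of day over all 3 days, 0% of 181 miRNAs passed. For Day 8 minus Day 0 it was 1.1%, for Day 16 minus Day 0 and Day 16 minus Day 8 0%, and for Day 0 minus the mean of Days 8 and 16 2.76%. At an unadjusted p under 0.05 (edgeR) the effect of day gave 1 of the 9, against 12.7% of 181. That 1 member was miR-2285t, which also was the only 1 of the 9 under 0.05 for Day 8 minus Day 0 (14.4% of 181), Day 16 minus Day 0 (14.4%) and Day 0 against the mean (17.1%). For Day 16 minus Day 8 it was 0 of 9, against 3.87%.

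MiR-2285t lay between 20.3 and 92.9 RPMM on Day 0 (median 38.7), between 12.5 and 53.2 on Day 8 (median 39.5) and between 15.6 and 40 on Day 16 (median 35.2). The medians were close and the days overlapped, while the highest values were on Day 0. In CPM the means were 68.6 ± 37.1, 50.5 ± 16.6 and 47.9 ± 11.9 (SD, n = 8). The log2 fold change was −0.35 ± 0.15 (SE) for Day 8 minus Day 0 (adjusted p = 0.240, edgeR), with 5 of 8 heifers lower, and −0.40 ± 0.15 for Day 16 minus Day 0 (adjusted p = 0.340), with 6 of 8 lower. Day 0 minus the mean of the other days was 0.38 ± 0.13 (adjusted p = 0.155), with 6 of 8 higher. Heifers 16, 18, 22, 34 and 35 had their highest level on Day 0, most of all heifers 18, 22 and 35 (142.4, 91.4 and 87.6 CPM), and heifers 20 and 21 had their lowest then (52.1 and 24.4).

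That comparison moved with single animals. Without heifer 18 the log2 difference of Day 0 from the mean was 0.27 (adjusted p = 0.395, edgeR) and no longer under 0.05 unadjusted. Without heifer 21 it was 0.49 (adjusted p = 0.0319), and Day 8 minus Day 0 then passed for miR-2285t (−0.47, adjusted p = 0.0681) and for miR-2284aa (0.33, adjusted p = 0.0707) as well. The erythrocyte share was 22.2% on Day 0, 22.0% on Day 8 and 30.95% on Day 16. With the miR-486 and miR-451 covariates the difference of Day 0 from the mean was 0.36 (adjusted p = 0.153). For the effect of day none of the 9 was under 0.05 unadjusted (edgeR) without heifer 18, 22 or 35. Day 8 minus Day 0 gave none without heifer 16, 22 or 35.

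The most abundant members moved less. MiR-2284y gave −0.14 ± 0.13 for Day 8 minus Day 0 and −0.01 ± 0.13 for Day 16 minus Day 0, and miR-2284x gave the same values. MiR-2284aa gave 0.27 ± 0.14 for Day 8 minus Day 0 (adjusted p = 0.331, edgeR), higher in 7 of 8 heifers, and 0.07 ± 0.14 for Day 16 minus Day 0. MiR-2285k, placed on chromosome 1 with 5 RefSeq copies, gave 0.18 ± 0.20 and −0.03 ± 0.20. None of these passed, and for Day 16 minus Day 0 the sign of miR-2284aa turned when libraries were scaled to total counts (−0.11). Over the 9 the median log2 fold change was 0.17 for Day 8 minus Day 0, against 0.04 over all 181. Above 0 were 6 of 9, against 104 of 181, and the 6 included both miR-2284aa and miR-2284z, read as 1 measurement.

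**Figure D3:**
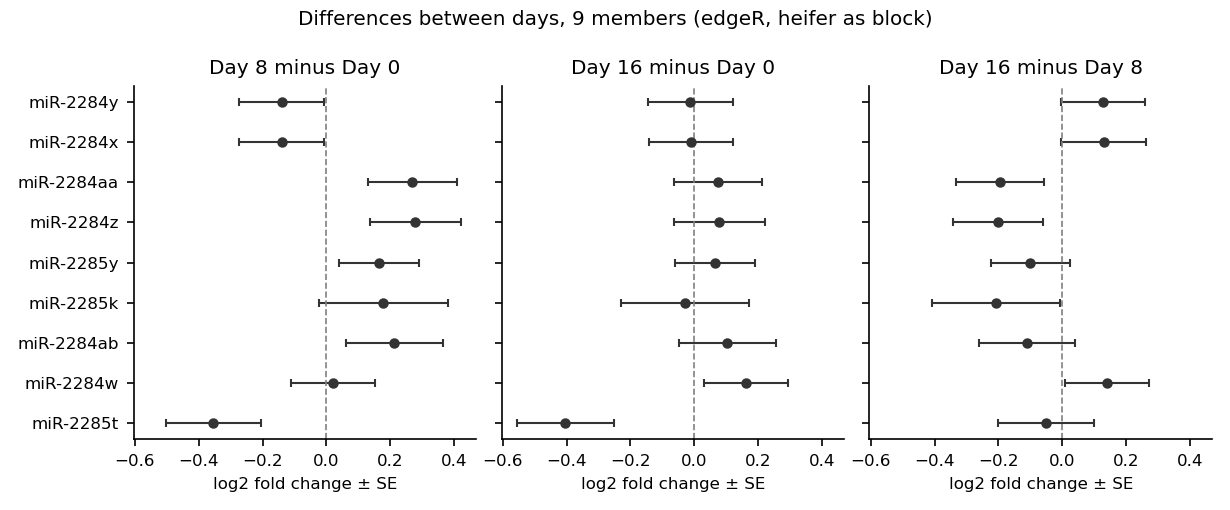
Log2 fold change ± SE (edgeR, heifer as block, 24 libraries) of the 9 tested members for each pair of days, with a dashed line at 0. MiR-2285t lies lowest in both comparisons with Day 0 (−0.35 and −0.40), miR-2284aa and miR-2284z lie above 0 for Day 8 minus Day 0, and none passed the adjusted threshold.

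In the wider set 0 of 21 members passed the adjusted threshold for any comparison of days (edgeR). Of all 325 miRNAs 0.615% passed for the effect of day, 1.54% for Day 8 minus Day 0, 0.308% for Day 16 minus Day 0, 0% for Day 16 minus Day 8 and 2.46% for Day 0 minus the mean. For the effect of day 2 were under 0.05 unadjusted, against 11.4%, and for Day 16 minus Day 8 2 were, against 5.23%. Beside miR-2285t these were miR-2284ac and miR-2285g. MiR-2284ac was between 0.85 and 7.52 RPMM on Day 0 (median 5.28), 1.59 and 9.33 on Day 8 (median 5.48) and 1.36 and 6.67 on Day 16 (median 2.65), with only 3 to 56 counts per library. Its log2 fold change for Day 16 minus Day 8 was −0.81 ± 0.29 (adjusted p = 0.755), and 5 of 8 heifers were lower. MiR-2285g was 0.50 ± 0.20 higher on the log2 scale on Day 16 than on Day 8, in all 8 heifers, and did not pass (adjusted p = 0.755). Its RPMM was 5.31 to 12.3 (median 6.92) on Day 8 and 5.78 to 16.2 (median 9.80) on Day 16, and the days overlapped.

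The balance between both abundant pairs was read as the counts of miR-2284aa per count of miR-2284x in the same library, which does not depend on how libraries are scaled. It was 0.158 to 0.479 on Day 0 (median 0.285), 0.205 to 0.675 on Day 8 (median 0.385) and 0.259 to 0.341 on Day 16 (median 0.298). Heifers 22, 35 and 25 had 0.675, 0.550 and 0.513 on Day 8, above all other libraries, and heifer 18 was lowest on Days 0 and 8. Day 8 exceeded Day 0 by 0.43 ± 0.46 on the log2 scale (SD, n = 8), with 7 heifers of 8 higher, and this did not pass (two-sided exact permutation test by sign changes, p = 0.047, adjusted over 3 pairs of days 0.141). For Day 16 minus Day 0 the difference was 0.09 ± 0.56 (exact p = 0.617) and for Day 16 minus Day 8 −0.34 ± 0.58 (exact p = 0.164). On Day 16 the heifers were close together, with an SD of the log2 ratio of 0.13, against 0.49 on Day 0 and 0.58 on Day 8. The difference in spread was not tested.

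**Figure D4:**
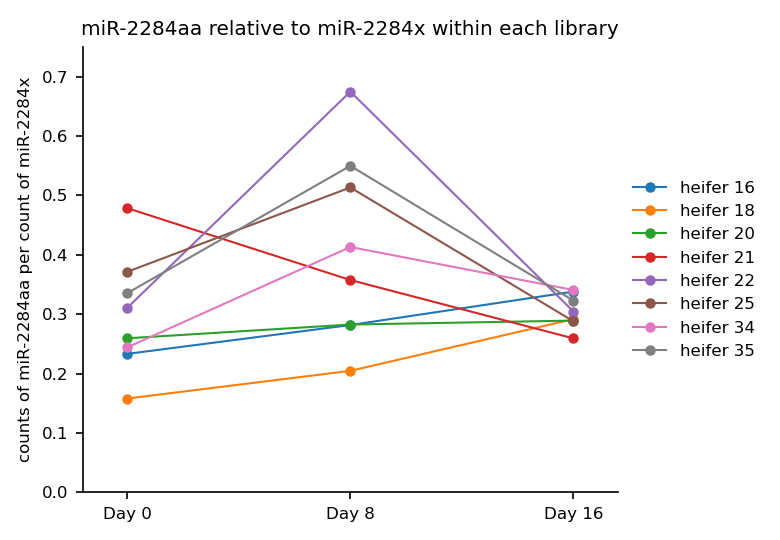
Counts of miR-2284aa per count of miR-2284x in each library (axis from 0), with the 3 days of a heifer joined by a line. Values spread from 0.158 to 0.675 on Days 0 and 8 and lie between 0.259 and 0.341 on Day 16.

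The number of members with more than 10 counts in a library was 15 to 22 on Day 0 (mean 18.9 ± 2.36, SD, n = 8), 17 to 23 on Day 8 (19.9 ± 1.96) and 14 to 20 on Day 16 (17 ± 1.93). Day 16 was lower than Day 8 in 6 of 8 heifers, by 2.88 ± 2.90 members (same exact test, p = 0.039, adjusted 0.117). Day 8 minus Day 0 was 1.0 ± 2.27 (exact p = 0.313), and Day 16 minus Day 0 −1.88 ± 3.04 (exact p = 0.156). A cut on raw counts moves with depth, which was 2197709 to 4700764 on Day 8 and 1488279 to 4672302 on Day 16. Counted as members above 1 RPMM, which is scaled for depth, the mean number was 24.5 on both Day 8 and Day 16. The smallest p that 8 heifers allow in this test is 0.0078.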

How the data were processed

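Each plasma RNA gave 1 TruSeq small-RNA library. According to the methods, the authors mapped reads against bovine and then human mature miRNAs of miRBase with sRNAbench and Bowtie 0.12.9, allowing 1 mismatch. The authors deposited raw counts and RPM values, called RPMM, which are the counts scaled to reads mapped to the genome. How reads that match several members were counted is not stated in the sources used here.

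Counts were tested with edgeR 4.0.16 (R 4.3.3, quasi-likelihood, TMM), with day and heifer as terms, on all 181 miRNAs above 25 RPMM in at least 6 of 8 libraries of each day, with Benjamini-Hochberg adjustment over all of them and thresholds of 0.1 (adjusted) and 0.05 (unadjusted). A wider set took at least 10 counts in at least 8 libraries (325 miRNAs). An SE is the log2 fold change divided by the square root of F. Single values per library were compared by all 256 sign changes over 8 heifers. The heifer numbers pair libraries of the same animal: residual profiles had a median correlation of 0.338 within and −0.0443 between heifers. The 3 libraries of a heifer are separate blood samples. Depth was 1299679 to 4700764 counts per library, which limits members with few counts.

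The members, lists and tests were chosen with earlier results of these data known. Named in full were the members with the most reads of each shared place, miR-2285t, and members with an unadjusted p under 0.05 between days, and all 21 tested members were named. The heifer comparisons describe the animals with 3 libraries each. Marker lists were erythrocyte, platelet, leukocyte, and liver and gut. The 3 liver and gut miRNAs summed to 4.44% (heifer 18) to 8.06% (heifer 16) of counts. Sequences were taken from a supplementary isomiR list, and only those. The procedure was tested on simulated counts. Alternatives used DESeq2 1.42.0, limma 3.58.1 on log2(RPMM + 1) and log2(RPMM + 0.1), a repeated-measures test, other scalings and limits, covariates, no heifer term, and each heifer left out. Other values used Python 3.11.15, numpy 2.4.6, pandas 2.3.3 and matplotlib 3.10.9.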

Additional observations from a re-analysis of the deposited data

Results flagged for a closer look

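Each of the 21 members of the wider set, the number of members over 10 counts and the log2 ratio of miR-2284aa to miR-2284x were examined on each day for a heifer that stands far from the other 7, in 69 groups of 8 libraries. Chance gives about 1 in 20 such groups, and 2 were found, both in members with few counts. MiR-2284f on Day 16 was 8.68 CPM in heifer 20 (31 counts), and the next highest heifer had 4.65. MiR-2285z on Day 8 was 1.54 CPM in heifer 16 (4 counts), and the next lowest heifer had 3.68.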

How the results depend on the processing

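With the heifer as block in the main design, the fit with no replicate block called 0 of 9 members for any comparison of days, and miR-2285t was then at an adjusted p of 0.690 for the effect of day (edgeR). The count of members that differed between heifers was 10 of 54 with no filter on low counts and 10 of 21 with filterByExpr, as more members were tested, and 4 to 6 with a heifer left out (lowest without heifer 18 or 25; 6 to 10 in the wider set, lowest without heifer 22). MiR-2284ab was not called with no filter (adjusted p = 0.179). For Day 0 minus the mean of Days 8 and 16, DESeq2 called 1 member (miR-2285t, 0.38, adjusted p = 0.0647). At an unadjusted p under 0.05, the repeated-measures test gave 0 of 9 for the effect of day. For Day 8 minus Day 0, limma gave 0 of 9 at that limit, as did edgeR with total counts. With a heifer left out, 0 to 3 members were called for Day 8 minus Day 0 (0 to 2 in the wider set) and 0 to 1 for Day 0 minus the mean (0 to 1), in each case only without heifer 21. The cause was not tested.

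Uncalled differences near 0 changed sign. MiR-2284aa, Day 16 minus Day 0, was −0.055 with limma (both pseudocounts) and the repeated-measures test and −0.11 with total counts. MiR-2284y, Day 16 minus Day 8, was −0.039 with limma and the repeated-measures test and −0.030 with total counts, and Day 16 minus Day 0 was −0.082 to 0.070 with a heifer left out. MiR-2285k, Day 16 minus Day 0, was 0.14 with covariates and −0.11 to 0.090 with a heifer left out, and Day 0 minus the mean was 0.046 with total counts and −0.23 to 0.012. MiR-2285t, Day 16 minus Day 8, was 0.010 with covariates and −0.14 to 0.030. With a heifer left out, differences in members over 10 counts were 0.71 to 1.71 (Day 8 minus Day 0), −2.71 to −1.29 (Day 16 minus Day 0) and −3.43 to −2.29 (Day 16 minus Day 8), passing only without heifer 18 or 20 (adjusted exact p = 0.047). Above 1 RPMM, Day 8 minus Day 0 was −1.25. The log2 ratio of miR-2284aa to miR-2284x gave 0.33 to 0.55 (Day 8 minus Day 0), passing only without heifer 21 (adjusted exact p = 0.047), and −0.023 to 0.23 (Day 16 minus Day 0).

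In all, 761 of the values recomputed were classed as the same. A count of called members stayed in that class after a small change, as with 4 of 9 against 6 of 9 between heifers. The others were classed as reversed (20), stronger (9), weaker (7) or moved (8). A planned merging of members by sequence was not run, as not all sequences were at hand; merging by deposited place, chosen after seeing the data, took its place. Members under 10 counts are limited by depth.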

Other observations

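RefSeq lists a single hairpin for miR-2284h, on chromosome 5. The deposited table places its 3p arm on chromosome 5 and its 5p arm on chromosome 24. The 5p arm had 674 counts in all and was read in 24 of 24 libraries, and the 3p arm had 2 counts, in 2 libraries. MiR-2284t was also listed by both arms, 20 bases apart on chromosome 15, with 16 counts for the 5p arm in 10 libraries and 1 count for the 3p arm.

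A predicted 3p arm of miR-2284w in the isomiR list of the study was compared with the reverse complement of miR-2284x. Arms of a hairpin pair with each other, so such likeness can arise whatever the strand on which a member is placed. The sequences were the same at 15 of 21 aligned bases, in capitals.
predicted arm miR-2284w-3p: AAAACCtcAAtGAACTcTTtgg
reverse complement of miR-2284x: AAAACCcgAAcGAACTtTTca
The arm also had 15 of 21 aligned bases in common with the reverse complement of miR-2284aa. In the forward direction the same arm had 10 of 19 aligned bases in common with miR-2284x at the best shift. This is given as a description with no test.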
